A study of Mus musculus with 13 samples.

Results

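The genes described here carry water, chloride and sodium across uterine cells: the aquaporin genes Aqp1, Aqp3, Aqp5, Aqp8 and Aqp11, the chloride channel gene Cftr, and Scnn1a, Scnn1b and Scnn1g, which encode the α, β and γ subunits of the epithelial sodium channel ENaC. The 9 genes were picked by name, with earlier results of these data known, so the counts and medians below are descriptions. Each is represented by the array feature that carries its symbol alone, and each of the 9 genes had exactly 1 such feature among 65929 features in all. Expression was measured in endometrium scraped from the uteri of 13 female C57BL/6 mice, all without ovaries, removed at 6 to 8 weeks of age, and treated for 12 weeks. The MIX mice (n = 3) carried a subcutaneous pellet releasing 17-β estradiol and ate a high-fat diet, the E2 mice (n = 4) carried the pellet on chow, the HD mice (n = 3) ate the high-fat diet without a pellet, and the CON mice (n = 3) had chow and no pellet. Each mouse gave 1 array. Values are log2 expression after RMA normalization by the authors, so a difference of 1 is a doubling, and levels are compared between mice and not between genes.

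The lining of the uterus both secretes and absorbs fluid. Chloride leaves epithelial cells through CFTR, a channel opened by cyclic AMP signalling, and sodium and water follow it into the lumen. ENaC does the reverse step by taking sodium back up from the lumen, and aquaporins are the pores through which water crosses cell membranes. Ovarian steroids are known to set the balance between these steps in rodents, with fluid accumulating under estrogen and being absorbed under progesterone. The comparisons ask how estradiol, a high-fat diet and their combination relate to the transcripts of these channels when no ovary is present.

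The scraped tissue carried epithelial and stromal marker genes. All 12 measured epithelial markers and all 10 measured stromal markers lay above the array median in every mouse. So did all 8 measured smooth muscle markers and all 10 measured mesothelial markers. A level above the array median therefore does not tell endometrium from muscle or mesothelium. MIX replicate 2 stood apart in its cell markers: its mean level of endothelial markers was 7.42, where the other 12 mice had 5.27 to 6.09, and its mean level of epithelial markers was the lowest of all at 9.52, where the others had 9.67 to 10.17. Squamous markers averaged 7.63, 6.34 and 7.70 in MIX mice, 5.75 to 6.73 in E2 mice, 5.58 to 5.72 in HD mice and 5.46 to 5.65 in CON mice. Of 13 measured macrophage markers, 12 had higher fitted values under the pellet averaged over diets, with 0 past the threshold. At an unadjusted p under 0.05 were 9 of them, beside 9.99% of all features. In HD with CON 12 of 13 had higher fitted values too. There 0 were past the threshold and 2 at an unadjusted p under 0.05, beside 2.91% of all features. Of 7 measured genes known to follow estradiol, 0 passed in the averaged pellet comparison, and 4 had higher and 3 lower fitted values. These counts ignore the direction in which each gene is known to move, so they are no measure of an estradiol response. Only 1, the estrogen receptor gene Esr1, had an unadjusted p under 0.05 (-0.46, adjusted p = 0.461 in limma). Ltf, which encodes lactotransferrin and is induced by estrogen in mouse uterus, was at 13.01 ± 0.38 in MIX (SD, n = 3), 12.64 ± 0.21 in E2 (n = 4), 12.67 ± 0.43 in HD (n = 3) and 12.20 ± 0.26 in CON (n = 3). Pgr, the progesterone receptor gene, was at 9.50 ± 0.62 in MIX (SD, n = 3), 9.96 ± 0.52 in E2 (n = 4), 9.93 ± 0.71 in HD (n = 3) and 10.54 ± 0.34 in CON (n = 3). Of the 9 channel genes 8 lay above the array median in every mouse, and Scnn1g lay below it in 2, so differences of Scnn1g may be compressed near background. Animals were named in the titles by numbered or by lettered codes, and what the styles stand for is not stated there. All 3 MIX mice and 1 mouse of each other group have lettered codes, so the fitted differences below include code style as a term.

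In the 8 comparisons tested with limma, 0 of the 9 genes reached an adjusted p under 0.05 (Benjamini-Hochberg, over every feature of the array). The values below therefore describe these mice, and unadjusted p-values are given with the adjusted ones. The pellet difference averaged over both diets set the 7 mice with a pellet against the 6 without. At the adjusted threshold limma called 0.0167% of features in it, 0.00303% in MIX with CON, 0.00455% in MIX with HD and 0.0% in the other 5 comparisons, and in the averaged pellet comparison 9.99% of features had an unadjusted p under 0.05. Of the 9 genes, 5 had an unadjusted p under 0.05 there, with higher values under the pellet for Scnn1a, Scnn1b, Scnn1g and Aqp3 and lower values for Cftr. The median difference of the 9 was 0.60, beside -0.03 over all features. For these 5 genes the fitted difference lay farther from 0 in MIX with HD than in E2 with CON, but only for Scnn1a did the interaction of pellet and diet have an unadjusted p under 0.05. For Scnn1b this order turned without the code style term, at 0.526 in MIX with HD and 0.617 in E2 with CON. The unadjusted count was 3 of 9 genes in MIX with CON (8.34% of features), 4 in MIX with HD (7.05%), 2 in MIX with E2 (2.78%) and 0 in E2 with CON (4.02%).

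**Figure D1:**
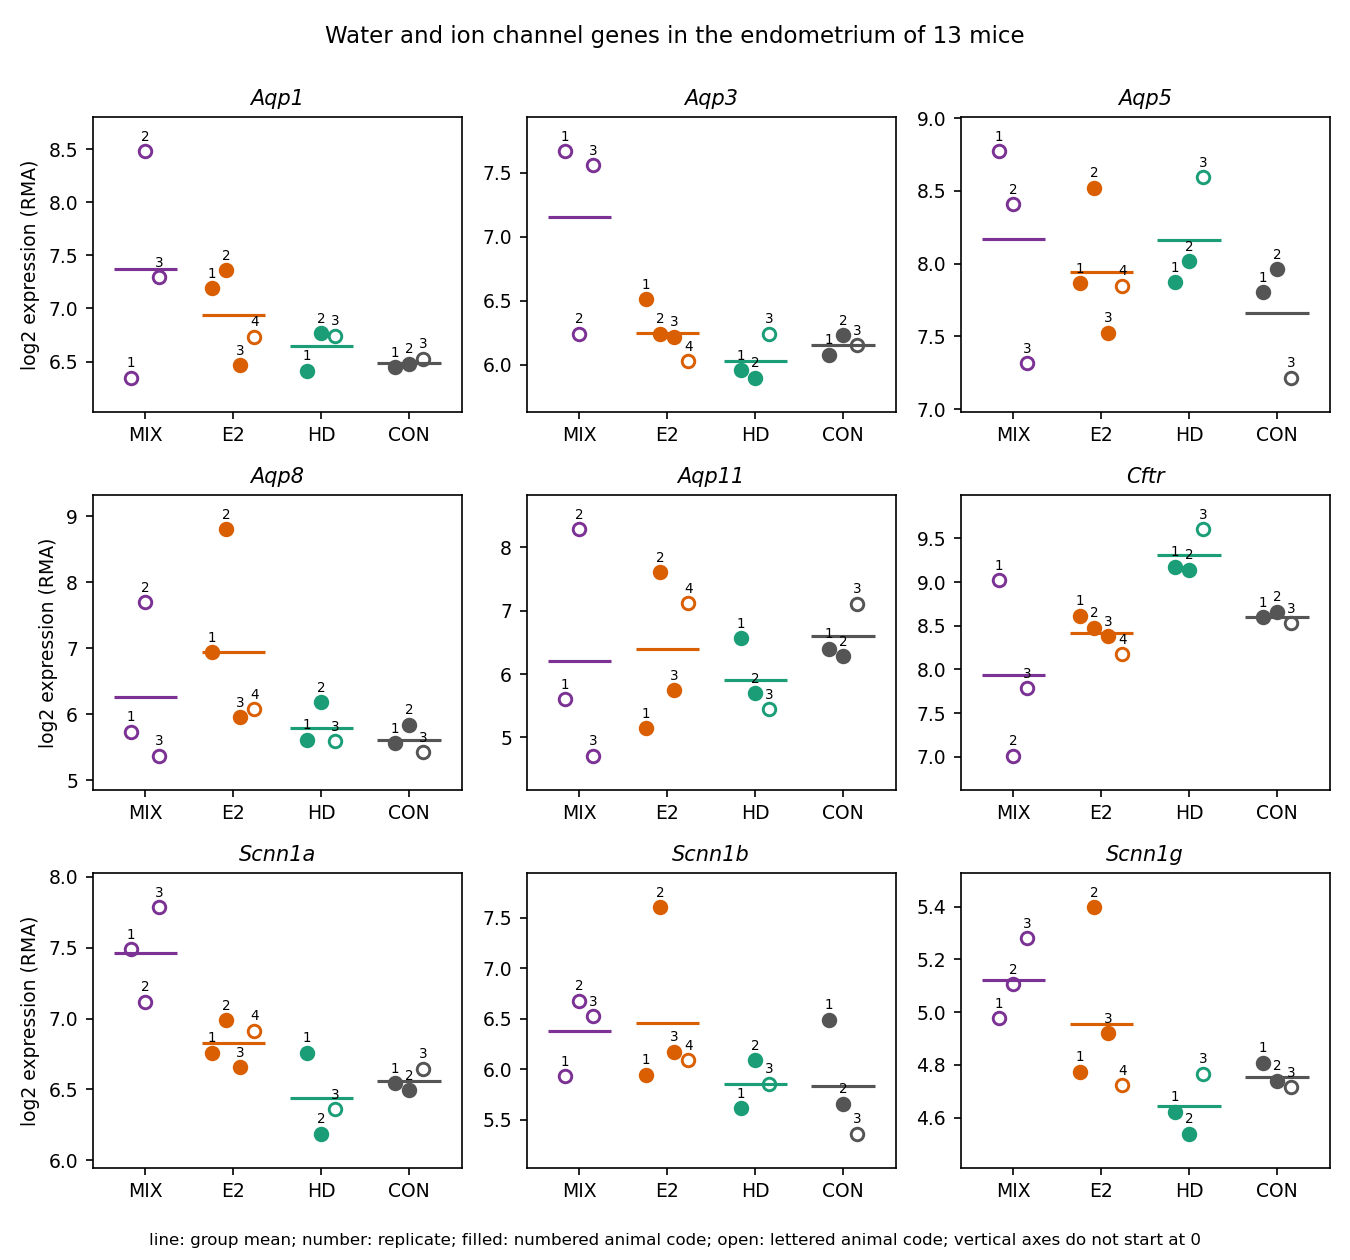
Log2 expression of the 9 genes (vertical axes) in each mouse of MIX, E2, HD and CON (horizontal axes), with a line at the group mean and the replicate number above each point. Scnn1a in the 3 MIX mice (7.12 to 7.79) lies above all 10 other mice, Aqp3 is high in MIX replicates 1 and 3 only, and Cftr is above 9.1 in the 3 HD mice.

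Scnn1a encodes the α subunit, without which ENaC forms little working channel. It lies on chromosome 6 at 125314271 to 125344943 (GRCm38.p6, the assembly of the RefSeq gene table). Scnn1a was at 7.49, 7.12 and 7.79 in the MIX mice and at 6.76, 6.99, 6.66 and 6.91 in the E2 mice. It was at 6.76, 6.19 and 6.36 in the HD mice and at 6.54, 6.49 and 6.65 in the CON mice. Every MIX mouse lay above every mouse of the other groups, and how many features do so was not counted. Every E2 mouse lay above every CON mouse by a narrow margin, though E2 and HD overlapped. The pellet difference averaged over diets was 0.64 (SE 0.13), which is 1.55-fold with a 95% interval of 1.27 to 1.90. Its unadjusted p was 0.000676 and its adjusted p 0.216 in limma. Over the alternative analyses this difference stayed between 0.556 and 0.722, with adjusted p-values of 0.0796 to 0.976. Permuting the pellet label within each diet gave an exact two-sided p of 0.00286 for the plain difference of 0.649, where 0.00143 is the smallest that 700 relabelings can give.

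The fitted Scnn1a difference was farther from 0 on the high-fat diet than on chow. MIX with HD differed by 1.00 (SE 0.21, adjusted p = 0.480 in limma) and MIX with CON by 0.87 (SE 0.21, adjusted p = 0.334), and both comparisons share the MIX mice. E2 with CON differed by 0.27, with a 95% interval of -0.11 to 0.65. The interaction of pellet and diet (MIX minus HD, less E2 minus CON) was 0.73 (SE 0.27, unadjusted p = 0.0241, adjusted p = 1.00 in limma), and 2.1% of features had an unadjusted p under 0.05 in it. Among pellet mice, MIX with E2 differed by 0.60 (SE 0.21, adjusted p = 1.00). On the diet alone, HD with CON differed by -0.12, with a 95% interval of -0.53 to 0.28. Within the lettered mice alone, MIX exceeded the single CON mouse by 0.820 and the single HD mouse by 1.10, beside 0.87 and 1.00 over all mice. Squamous marker levels, given above by group, were highest in the same MIX replicates 1 and 3 that were highest for Scnn1a. MIX replicate 2 had a squamous level of 6.34, below 6.73 in E2 replicate 1. Its Scnn1a value was nevertheless the higher one, at 7.12 against 6.76 in that E2 mouse. The part of squamous cells in the Scnn1a values was not tested.

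Scnn1g and Scnn1b encode the γ and β subunits, which assemble with α. Both lie on chromosome 7, Scnn1g at 121734420 to 121768482 and Scnn1b at 121865038 to 121918728, with 96.6 kb between them. Scnn1g was at 4.98, 5.11 and 5.28 in the MIX mice and at 4.77, 5.40, 4.92 and 4.72 in the E2 mice. It was at 4.62, 4.54 and 4.77 in the HD mice and at 4.81, 4.74 and 4.72 in the CON mice. The MIX mice lay above all HD and all CON mice, while the E2 mice overlapped with MIX, HD and CON. The pellet difference averaged over diets was 0.36 (SE 0.12, 1.28-fold, unadjusted p = 0.0109, adjusted p = 0.376 in limma). In lettered mice alone it was 0.181. MIX with HD differed by 0.52 (SE 0.18, adjusted p = 0.685) and MIX with CON by 0.41 (SE 0.18, adjusted p = 0.590).

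Scnn1b varied within groups (SD 0.24 in HD to 0.77 in E2), beside group means of 5.84 in CON to 6.45 in E2. It was at 5.93, 6.68 and 6.53 in the MIX mice and at 5.95, 7.60, 6.18 and 6.09 in the E2 mice. It was at 5.62, 6.09 and 5.86 in the HD mice and at 6.49, 5.66 and 5.36 in the CON mice. Each pair of groups overlapped, and E2 replicate 2 was the highest mouse by a wide margin. The pellet difference averaged over diets was 0.69 (SE 0.30, 1.61-fold, unadjusted p = 0.0438, adjusted p = 0.489 in limma). Without E2 replicate 2 it was 0.455. E2 replicate 2 also had the highest Scnn1g and Aqp8 values of the 13 mice.

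Upstream sequence was available for 8 of the 9 genes in the RefSeq promoter table (build GRCm38.p6), and Scnn1a was not among them. The 250 bases before the transcript start of that table are shown for both ENaC genes that neighbour each other, for Aqp3 and for Cftr, since these 4 had an unadjusted p under 0.05 under the pellet. Capitals mark the Sp1 box GGGCGG and the single arm GGTCA of the estrogen response element, whose complete form is GGTCA, 3 bases of any kind, then TGACC, each searched on both strands.
Scnn1g, chr7:121734229-121734478, plus strand: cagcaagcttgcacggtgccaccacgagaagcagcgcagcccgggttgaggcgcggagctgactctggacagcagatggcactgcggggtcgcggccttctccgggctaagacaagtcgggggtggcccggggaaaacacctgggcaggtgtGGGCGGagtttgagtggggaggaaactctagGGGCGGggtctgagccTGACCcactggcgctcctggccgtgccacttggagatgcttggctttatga
Scnn1b, chr7:121864788-121865037, plus strand: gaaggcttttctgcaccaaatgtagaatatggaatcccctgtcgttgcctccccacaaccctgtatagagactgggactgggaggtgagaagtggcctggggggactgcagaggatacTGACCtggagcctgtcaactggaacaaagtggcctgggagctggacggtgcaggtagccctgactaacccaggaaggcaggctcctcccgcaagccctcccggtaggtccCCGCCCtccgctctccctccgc
Aqp3, chr4:41098184-41098433, minus strand: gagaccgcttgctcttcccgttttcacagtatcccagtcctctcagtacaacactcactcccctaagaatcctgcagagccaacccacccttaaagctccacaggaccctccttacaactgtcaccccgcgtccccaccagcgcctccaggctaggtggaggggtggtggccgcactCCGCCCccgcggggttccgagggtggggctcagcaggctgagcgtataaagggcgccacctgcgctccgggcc
Cftr, chr6:18170437-18170686, plus strand: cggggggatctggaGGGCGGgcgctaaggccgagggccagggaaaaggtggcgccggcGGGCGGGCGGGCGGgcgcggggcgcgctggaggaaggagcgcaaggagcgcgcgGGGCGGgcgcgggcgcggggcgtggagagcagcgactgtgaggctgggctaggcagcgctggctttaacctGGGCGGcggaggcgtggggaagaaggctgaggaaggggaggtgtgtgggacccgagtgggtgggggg

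The complete element was found in 0 of the 8 windows and in 0.0639% of the 32851 windows of the table. The single arm GGTCA was found in 4 of the 8 windows (Scnn1g, Scnn1b, Aqp5 and Aqp11) and in 35.2% of all windows. The Sp1 box was found in 6 of the 8, including 6 copies for Cftr, some of which overlap, and in 32.7% of all windows. The AP-1 site TGANTCA was in 0 of the 8 and in 6.75% of all windows. Both ENaC windows hold the arm once, at position -51 from the table's start of Scnn1g and at -132 from that of Scnn1b. The table's start for Scnn1g lies inside the gene's span as given above, so the last 59 bases of its window, and the arm with them, fall within that span. These letter matches say nothing about binding.

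Cftr encodes the chloride channel opened by cyclic AMP signalling and lies on chromosome 6 at 18170687 to 18322770. Its values fell into a different order from those of the ENaC genes. Cftr was at 9.02, 7.01 and 7.78 in the MIX mice and at 8.61, 8.48, 8.38 and 8.17 in the E2 mice. It was at 9.17, 9.14 and 9.60 in the HD mice and at 8.60, 8.66 and 8.53 in the CON mice. The HD mice were the highest group and overlapped with no other mouse, while MIX replicates 2 and 3 were the lowest mice of all. How many features set the HD mice apart from all others was not counted. HD with CON differed by 0.71 (95% interval -0.16 to 1.58, adjusted p = 1.00 in limma), and no overlap in the higher direction was seen for 5.58% of features in that comparison.

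Under the pellet Cftr was lower on average, by a difference of -0.78 (SE 0.28, unadjusted p = 0.0208, adjusted p = 0.427 in limma), a level 1.71-fold lower than without a pellet. Permutation within diets gave an exact two-sided p of 0.00857 for Cftr. The same permutation test gave 0.0186 for Scnn1g, 0.0514 for Aqp3 and 0.0671 for Scnn1b. For Aqp1, Aqp5, Aqp8 and Aqp11 it gave 0.0771 to 0.944. For Cftr, MIX with HD differed by -1.37 (SE 0.45, adjusted p = 0.685 in limma), 2.58-fold lower, and no overlap in the lower direction was seen for 12.4% of features. E2 with CON differed by -0.19, with a 95% interval of -0.998 to 0.63, and the interaction was -1.18 (95% interval -2.49 to 0.13). Single mice decided the size. Without MIX replicate 1, the MIX mouse with the highest Cftr, MIX with HD was -1.91 (adjusted p = 0.0436) and the averaged pellet difference -1.05 (adjusted p = 0.0385), both past the threshold. In those fits limma called 80 and 224 of all features, where it called 3 and 11 over all mice. Without MIX replicate 2, MIX with HD was -0.902 (adjusted p = 0.506) and the averaged difference -0.544 (adjusted p = 0.349). Without HD replicate 3 they were -1.004 (adjusted p = 0.708) and -0.603 (adjusted p = 0.610). With array quality weights MIX with HD was -0.741 (adjusted p = 0.592) and the averaged difference -0.479 (adjusted p = 0.572). Epithelial marker levels stood at 10.17, 9.52 and 10.08 in MIX replicates 1, 2 and 3, beside Cftr at 9.02, 7.01 and 7.78, and their part in the Cftr values was not tested. In tissue RNA, fewer cells of a type and less RNA per cell cannot be told apart.

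Aqp3 encodes a pore for water and glycerol that is abundant in stratified epithelia and lies on chromosome 4 at 41092724 to 41098183. Aqp3 was at 7.67, 6.24 and 7.55 in the MIX mice and at 6.51, 6.24, 6.22 and 6.03 in the E2 mice. It was at 5.96, 5.90 and 6.24 in the HD mice and at 6.08, 6.23 and 6.15 in the CON mice. MIX replicates 1 and 3 lay more than 1 log2 unit above every mouse of the other groups, whereas MIX replicate 2 lay within the range of E2, level with the highest HD mouse and just above the highest CON mouse. MIX with CON differed by 1.01 (SE 0.36, 2.01-fold, unadjusted p = 0.0182, adjusted p = 0.480 in limma) and MIX with HD by 1.13 (SE 0.36, adjusted p = 0.685). MIX with E2 differed by 0.91 (SE 0.35, adjusted p = 1.00) and the averaged pellet difference was 0.61 (SE 0.23, adjusted p = 0.433).

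MIX replicate 2 decided whether Aqp3 passed. Without it MIX with CON was 1.46 (adjusted p = 0.0177), MIX with HD 1.58 (adjusted p = 0.0132), MIX with E2 1.37 (adjusted p = 0.0433) and the averaged pellet difference 0.840 (adjusted p = 0.0277), each past the threshold in limma. In those fits limma called 89, 53, 24 and 54 of all features, where it called 2, 3, 0 and 11 over all mice. Without MIX replicate 1, MIX with CON was 0.750 (adjusted p = 0.541). In lettered mice alone the averaged pellet difference was 0.396. These results share the MIX mice. Squamous markers moved with Aqp3 across the mice: they averaged 7.63 and 7.70 in MIX replicates 1 and 3 and 6.34 in MIX replicate 2. All 14 measured squamous markers had higher fitted values in MIX than in CON, with 0 past the threshold, a median of 1.67 and 11 at an unadjusted p under 0.05, where 8.34% of all features were. Under the pellet averaged over diets 2 of the 14 passed, the keratin genes Krt13 (2.54, adjusted p = 0.0296) and Krt15 (1.66, adjusted p = 0.0400). Krtdap was the only marker of that list below the array median in every mouse. The part of squamous cells in the Aqp3 values was not tested.

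**Figure D2:**
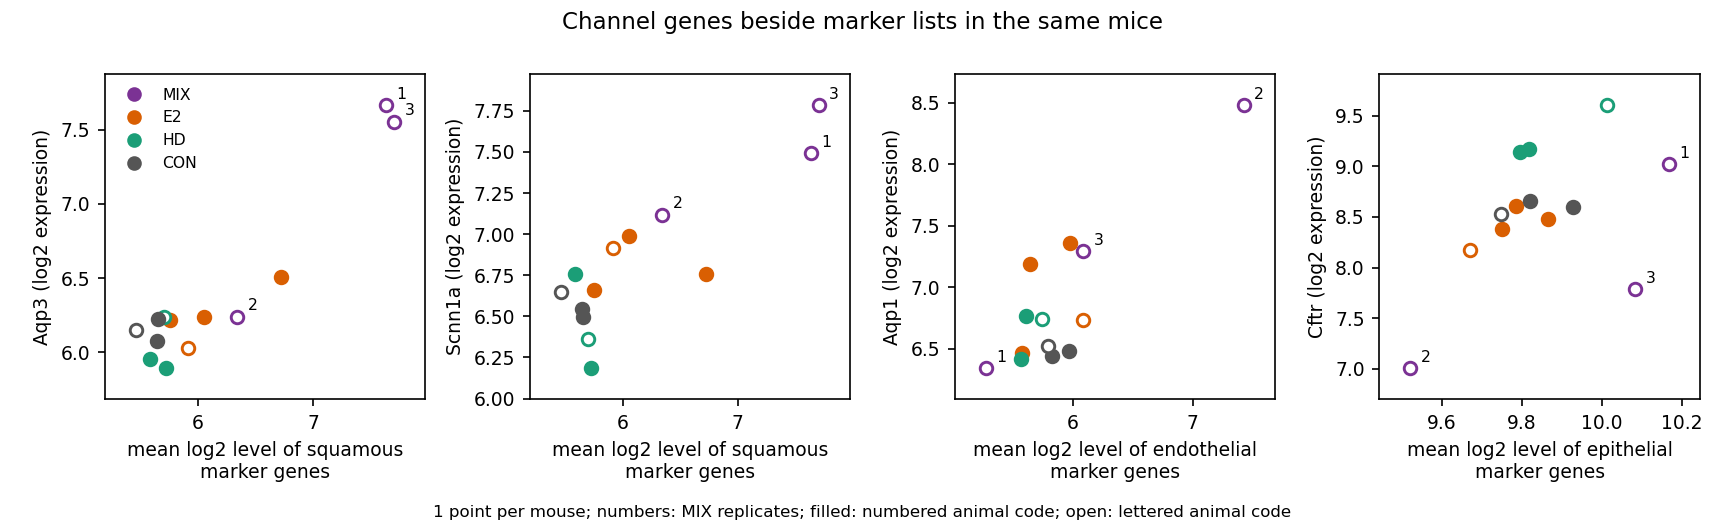
Log2 expression of Aqp3, Scnn1a, Aqp1 and Cftr (vertical axes) against the mean log2 level of squamous, endothelial or epithelial marker genes (horizontal axes), 1 point per mouse with the MIX replicates numbered. MIX replicates 1 and 3 are highest for Aqp3 and for squamous markers, and MIX replicate 2 is highest for Aqp1 (8.48) and for endothelial markers (7.42).

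Aqp1 encodes the water pore of endothelium, mesothelium and red cells and lies on chromosome 6 at 55336299 to 55348555. Aqp1 was at 6.35, 8.48 and 7.29 in the MIX mice and at 7.19, 7.36, 6.47 and 6.73 in the E2 mice. It was at 6.41, 6.77 and 6.74 in the HD mice and at 6.44, 6.48 and 6.53 in the CON mice. MIX held both the lowest and the highest mouse, and the groups overlapped. The averaged pellet difference was 0.60, with a 95% interval of -0.10 to 1.31 (adjusted p = 0.553 in limma). Without MIX replicate 2 it was 0.326. The highest value, in MIX replicate 2, came with that mouse's endothelial marker level of 7.42 and stromal marker level of 9.62, the highest of the 13 mice for both. Under the pellet 11 of 12 measured endothelial markers had higher fitted values, with 0 past the threshold and 1 at an unadjusted p under 0.05. All 10 measured mesothelial markers did, with 0 past the threshold and 7 at an unadjusted p under 0.05. Of all features 9.99% had an unadjusted p under 0.05 in the averaged pellet comparison. Mesothelial markers averaged 8.51 to 9.10 in MIX mice, 8.19 to 9.25 in E2 mice, 8.16 to 8.27 in HD mice and 7.64 to 8.10 in CON mice. Of 11 red cell markers 3 were measured, all with higher fitted values under the pellet, and 1 passed, the heme synthesis gene Alas2 (1.22, adjusted p = 0.0148 in limma). Their mean was 6.11 to 6.39 in MIX mice, 5.63 to 6.16 in E2 mice, 5.54 to 6.14 in HD mice and 5.43 to 5.96 in CON mice. The part of endothelium, mesothelium and red cells in the Aqp1 values was not tested.

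Aqp8 encodes a pore for water and hydrogen peroxide and lies on chromosome 7 at 123462294 to 123468003, 1544 kb beyond Scnn1b. Aqp8 was at 5.73, 7.70 and 5.37 in the MIX mice and at 6.94, 8.80, 5.96 and 6.08 in the E2 mice. It was at 5.62, 6.19 and 5.59 in the HD mice and at 5.56, 5.85 and 5.42 in the CON mice. The E2 mice all lay above the CON mice, and in that comparison 3.01% of features had no overlap in the higher direction. On chow the pellet difference was 1.28 (95% interval -0.21 to 2.78, adjusted p = 1.00 in limma), the largest point estimate of the 9 genes there and also one with a wide interval. Without E2 replicate 2, the highest mouse, it was 0.715, in lettered mice alone 0.656, and over all alternatives it ran up to 2.07. In MIX only replicate 2 was high, and the averaged pellet difference was 1.08 (95% interval -0.08 to 2.24, adjusted p = 0.527). Without E2 replicate 2 the averaged difference was 0.699, and in lettered mice alone 0.665.

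Aqp5 encodes the aquaporin of glandular and secretory epithelia and lies on chromosome 15 at 99591028 to 99594829. Aqp5 was at 8.77, 8.41 and 7.32 in the MIX mice and at 7.87, 8.52, 7.52 and 7.85 in the E2 mice. It was at 7.87, 8.02 and 8.59 in the HD mice and at 7.80, 7.96 and 7.22 in the CON mice. All 4 groups overlapped. The averaged pellet difference was 0.16, with a 95% interval of -0.47 to 0.79 (adjusted p = 0.882 in limma), a fold of 0.722 to 1.72, so a change in either direction lies within the interval. The diet difference averaged over pellet states was 0.38 (95% interval -0.27 to 1.03).

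Aqp11 encodes an intracellular aquaporin of the endoplasmic reticulum and lies on chromosome 7 at 97726379 to 97738247. Aqp11 was at 5.61, 8.29 and 4.71 in the MIX mice and at 5.15, 7.60, 5.74 and 7.12 in the E2 mice. It was at 6.57, 5.70 and 5.44 in the HD mice and at 6.40, 6.28 and 7.11 in the CON mice. The spread within MIX (SD 1.86) and within E2 (SD 1.15) exceeded any difference between group means. The averaged pellet difference was -0.06, with a 95% interval of -1.47 to 1.36 (adjusted p = 0.986 in limma). MIX replicate 2 and E2 replicate 2 were the highest mice for Aqp11, and the same mice were the highest for Aqp8 and for Aqp1.

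**Figure D3:**
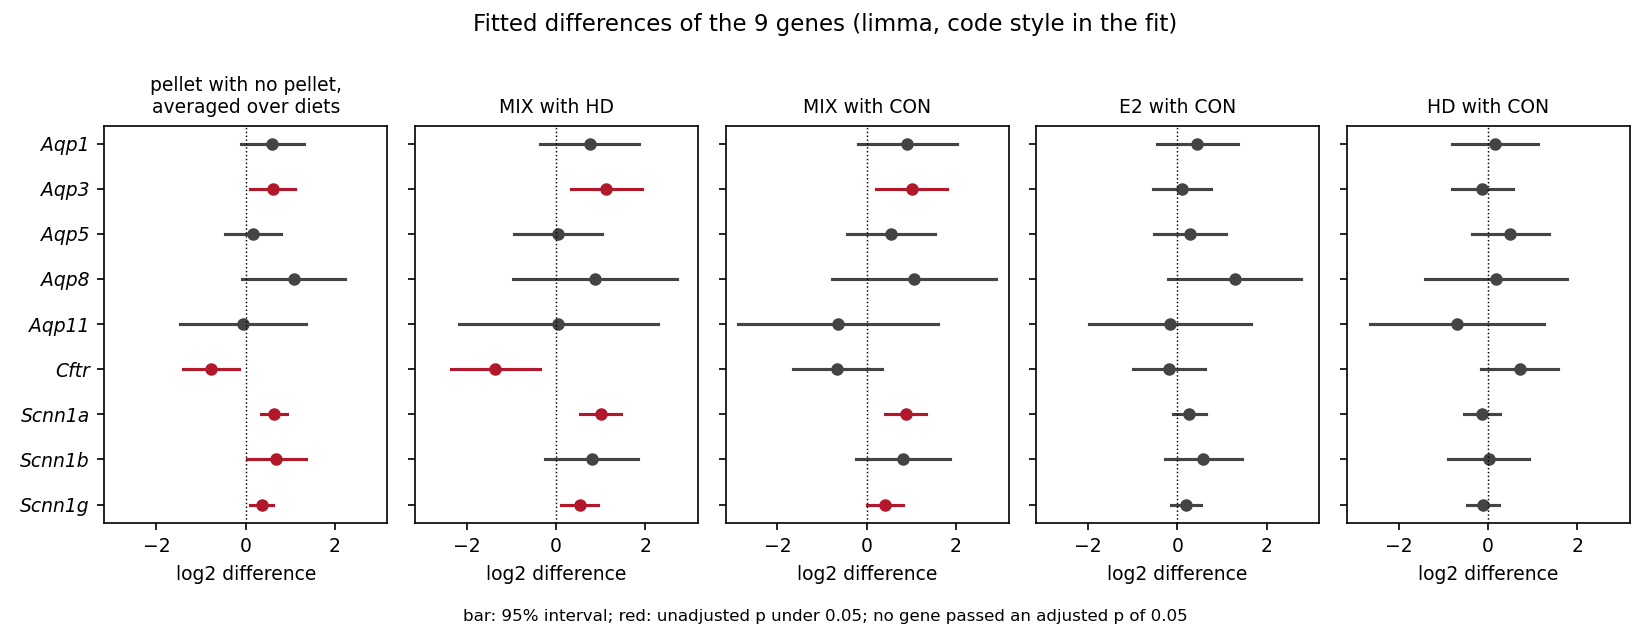
Fitted log2 differences (horizontal axes) of the 9 genes (vertical axis) in 5 comparisons, with 95% intervals from limma. The intervals of Scnn1a, Scnn1b, Scnn1g, Aqp3 and Cftr leave out 0 in the averaged pellet comparison, none does so in E2 with CON or HD with CON, and no gene passed an adjusted p under 0.05.

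The groups were compared for overlap as well. Against CON, the MIX mice did not overlap for Aqp3, Scnn1a and Scnn1g, all higher, where 5.52% of features showed no overlap in that direction. Against HD, the MIX mice did not overlap for Scnn1a and Scnn1g, both higher, where 3.47% of features did so. They also did not overlap for Cftr, lower, where 12.4% of features did so. Against E2, only Scnn1a had no overlap, higher in MIX, where 1.5% of features did so. E2 with CON showed no overlap for Aqp8 and Scnn1a, both higher, where 3.01% of features did so. HD with CON showed none for Cftr, higher, where 5.58% of features did so. With the high-fat diet alone, 0 of the 9 genes had an unadjusted p under 0.05 in limma, against 2.91% of all features, and 0 passed. The diet difference averaged over pellet states likewise had 0 of 9 at an unadjusted p under 0.05, against 3.36% of features.

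Other genes of fluid transport were examined by list, in the pellet comparison averaged over diets. There 9.99% of all features had an unadjusted p under 0.05, and the list counts below are to be read beside that share. Of the 7 remaining aquaporin genes, 0 passed under the pellet averaged over diets, 2 had higher and 5 lower fitted values, and the median was -0.07. Aqp4, a water channel of brain and epithelia, had the smallest p, at 5.87 ± 0.32 in MIX (SD, n = 3), 5.62 ± 0.26 in E2 (n = 4), 5.30 ± 0.07 in HD (n = 3) and 5.26 ± 0.09 in CON (n = 3), an averaged difference of 0.52 (SE 0.12, adjusted p = 0.235 in limma). Aqp2, the vasopressin-regulated channel of kidney, differed by -0.12 (SE 0.05), Mip, the aquaporin of the eye lens, by -0.12 (SE 0.06) and Aqp9 by 0.19 (SE 0.12).

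Among genes of other chloride and bicarbonate transport, 27 of 29 were measured, 0 passed, 10 had an unadjusted p under 0.05 with higher values under the pellet and 1 with lower values, and the median was 0.27. Ano1, a chloride channel opened by calcium, was at 9.07 ± 0.35 in MIX (SD, n = 3), 8.396 ± 0.40 in E2 (n = 4), 7.59 ± 0.17 in HD (n = 3) and 7.49 ± 0.20 in CON (n = 3). Its averaged pellet difference of 1.20 (SE 0.18, 2.30-fold) had an adjusted p of 0.0993 in limma. Every pellet mouse lay above every mouse without a pellet for Ano1, with 7.84 as the lowest value under the pellet and 7.72 as the highest without. No overlap in that direction was seen for 0.344% of features and for 0 of the 9 channel genes. Car13, a carbonic anhydrase gene, differed by 1.23 (SE 0.27, adjusted p = 0.225). Clca3b and Clca3a2, of the calcium-activated chloride channel regulator family, differed by 3.88 (SE 0.78, adjusted p = 0.197) and 2.52 (SE 0.57, adjusted p = 0.242). Members of that family are close copies, so their probes may share signal.

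The sodium pump drives both fluid secretion and absorption, and 19 of 22 genes of the pump and of potassium channels were measured. None passed, with 5 higher and 2 lower at an unadjusted p under 0.05 and a median of 0.05. Atp1b1, the β subunit of the pump, was at 9.84 ± 0.21 in MIX (SD, n = 3), 9.81 ± 0.50 in E2 (n = 4), 9.17 ± 0.27 in HD (n = 3) and 9.19 ± 0.31 in CON (n = 3), an averaged difference of 0.74 (SE 0.19, adjusted p = 0.282 in limma). Fxyd6, a pump regulator, differed by 0.39 (SE 0.10), and the inward rectifier potassium channel genes Kcnj15 and Kcnj16 by 0.50 (SE 0.14) and 0.80 (SE 0.25). Outside MIX, group means were 4.28 to 4.50 for Kcnj15 and 4.05 to 4.46 for Kcnj16. These lay near or below the array medians of 4.48 to 4.71, and the MIX means were 5.09 and 5.21. Among regulators and proteases of ENaC, 23 of 25 were measured and 0 passed, with 5 higher and 1 lower at an unadjusted p under 0.05 and a median of 0.07. Sgk1, the kinase that keeps ENaC at the membrane, differed by 0.38 (SE 0.13, adjusted p = 0.405) and the kinase gene Stk39 by 0.39 (SE 0.14). Prss8, the protease prostasin that activates ENaC, differed by -0.39 (SE 0.13, adjusted p = 0.405), opposite in direction to Scnn1a. Prss22, another serine protease gene, differed by 2.07 (SE 0.61, adjusted p = 0.345).

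Among regulators of CFTR, 24 of 27 were measured and 0 passed, with a median of -0.01. At an unadjusted p under 0.05, 1 was higher and 1 lower, beside 9.99% of all features. Adcy6, an adenylyl cyclase that makes cyclic AMP, was at 8.02 ± 0.34 in MIX (SD, n = 3), 8.00 ± 0.54 in E2 (n = 4), 8.51 ± 0.19 in HD (n = 3) and 8.50 ± 0.14 in CON (n = 3), an averaged difference of -0.55 (SE 0.20, adjusted p = 0.420 in limma). Pde4b, a phosphodiesterase that breaks cyclic AMP down, differed by 0.34 (SE 0.14), the kinase gene Prkg2 by 0.45 (SE 0.21) and Adcy5 by -0.21 (SE 0.10).

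**Figure D4:**
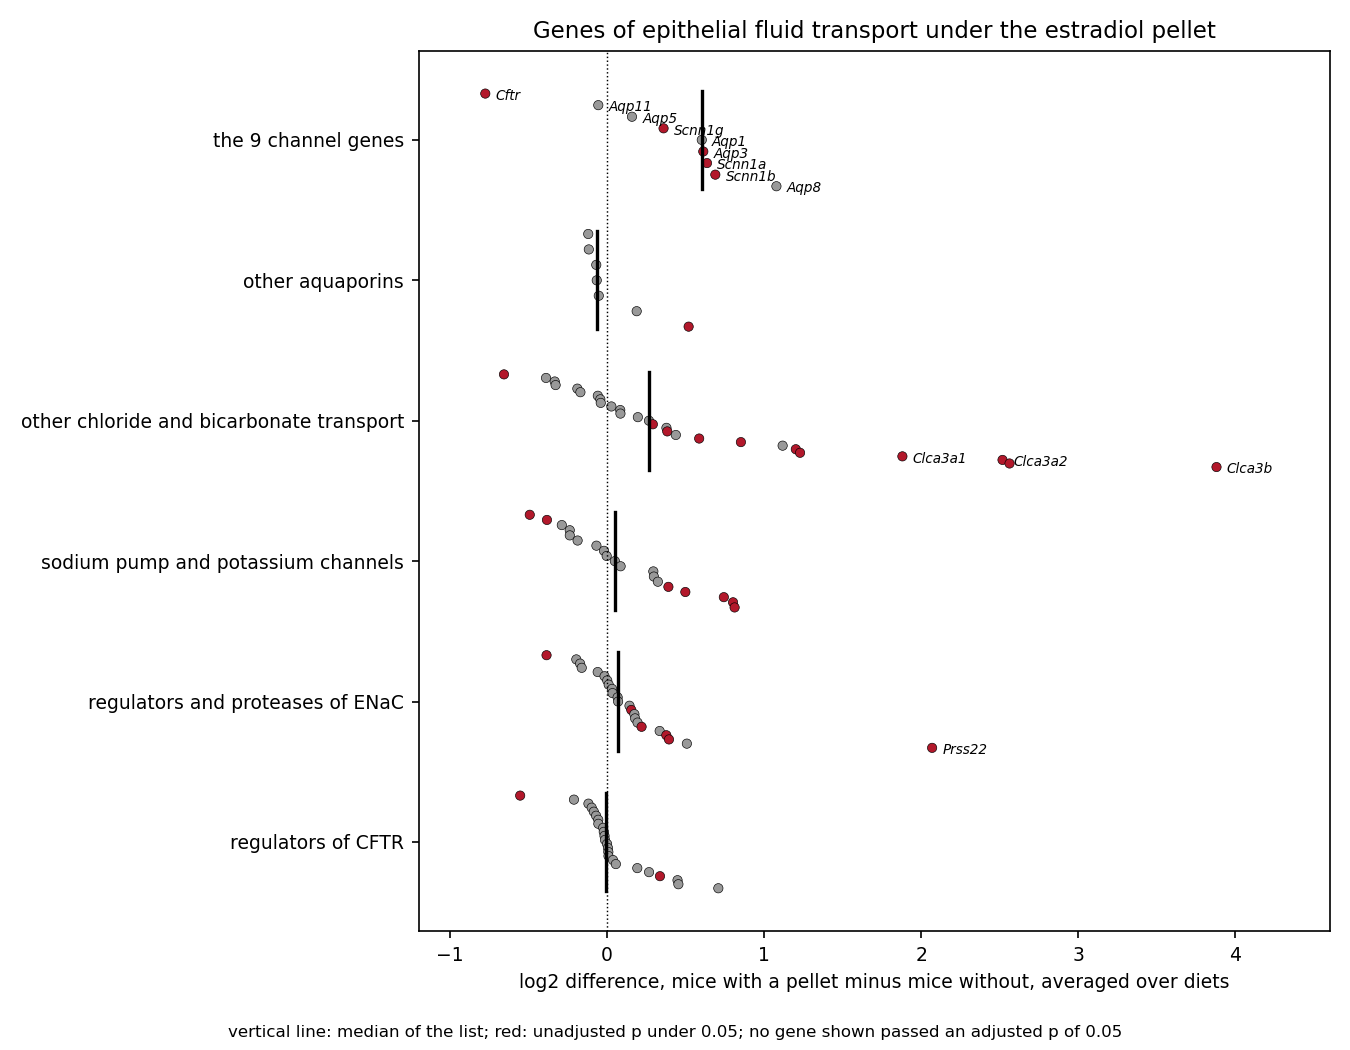
Averaged pellet difference on the log2 scale (horizontal axis, mice with a pellet minus mice without) of each of the 9 channel genes and of the measured genes in 5 transport lists (rows), with a line at each list's median. The chloride and bicarbonate list reaches farthest to the right, with Clca3b at 3.88, and Cftr is the lowest point of all at -0.78.

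The genes whose values ran most like each channel gene over the 13 mice were ranked by Pearson's r among 14775 genes, as a description. The mice share groups, so such likeness includes the group differences. Aqp3 was most like Trim29, a gene of stratified epithelium (r = 0.987), Duox2 (0.983) and Capn13 (0.973). Scnn1a was most like Tmem43 (0.913), the basal keratin gene Krt5 (0.907) and the adhesion gene Nectin1 (0.890). Aqp1 was most like Cald1, which encodes the actin-binding protein caldesmon (0.979), Ecm2 (0.959) and Abcg2 (0.955). Aqp8 was most like Guca2b, which encodes uroguanylin, a peptide that raises cyclic GMP in epithelia (0.929). Cftr was most like the transcription factor gene Myb (0.949), Scnn1b like Olfm1 (0.911), Scnn1g like Acot7 (0.908), Aqp5 like Gnptg (0.912) and Aqp11 like Sox5 (0.958).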

How the data were processed

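The deposited values are log2 expression per array feature, which the authors obtained by RMA, as the submitters' processing notes record; the labels' protocols give 250 ng of total RNA per array. RMA corrects background, equalises the arrays' distributions and summarises probes, and it compresses differences of dim features. Its version is not stated in the labels or headers. Arrays have no read depth, so precision rests on how many mice there are. The labels do not say whether mice shared cages or litters.

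Features were named through the platform annotation, with 827 symbols updated through Entrez identifiers. 30604 features carried 1 symbol, 2146 several and 33179 were unnamed here. A symbol was represented by its feature with the highest mean. A linear model with 4 group coefficients and code style (8 residual degrees of freedom) was fitted to all 65929 features with limma 3.58.1 (R 4.3.3) and moderated by eBayes. For code style itself limma called 0 features after adjustment, and 3516 had an unadjusted p under 0.05. P-values were two-sided and Benjamini-Hochberg adjusted over all features. The fit was checked on simulated data. The exact permutation tests used plain differences of means.

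The members and gene lists were chosen with earlier results of these data known. Named genes are the 9 members, the genes of a described list past the adjusted threshold or else up to 4 with the smallest unadjusted p, and the 3 or fewer genes most alike to each member over the mice, among genes above the median level and without predicted, clone-based, Olfr and Vmn symbols. Alternatives changed the covariates, the prior, the array weights, the feature filter, the scaling and the mice included.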

Additional observations from a re-analysis of the deposited data

Results flagged for a closer look

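Scnn1b in E2 replicate 2 was at 7.60, where the next E2 mouse was at 6.18, which made it an outlier among the 4 E2 mice by Dixon's test. Prss22 in E2 replicate 1 was at 9.70, where the next E2 mouse was at 8.01, an outlier by the same test. The mean of the 3 measured red cell markers in E2 replicate 4 was 5.625, where the next E2 mouse was at 6.11, an outlier likewise. The test was run in E2 only, and the smaller groups were not tested. In E2, 38 sets of values were examined, and chance flags about 1 in 20. No member gene had an interaction past the threshold.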

How the results depend on the processing

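Of 19 reported differences, 17 kept their sign in every alternative run, and 6 of 427 alternatives passed the threshold, all of them for Aqp3 without MIX replicate 2 or Cftr without MIX replicate 1. Leaving out 1 mouse at a time, the number of the 9 genes called ran from 0 to 1 in MIX with CON, MIX with HD, MIX with E2 and the averaged pellet comparison. The averaged pellet difference of Aqp5 was -0.001873 with a replicate block, and -0.07773 to 0.4248 with 1 mouse left out. That of Aqp11 was 0.05078 without the code style term and as a plain difference, 0.005078 with arrays centred on their medians, 0.3816 in lettered mice alone, and -0.578 to 0.3165 with 1 mouse left out. Over all alternatives the averaged pellet difference lay between 0.3255 and 0.8596 for Aqp1, 0.3957 and 0.8404 for Aqp3, 0.6653 and 1.331 for Aqp8, 0.4554 and 0.8441 for Scnn1b, 0.1812 and 0.4569 for Scnn1g, and -1.046 and -0.4786 for Cftr.

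Counts over all features moved more. In MIX with CON, where limma called 2, the count was 15 without code style, 0 with the replicate block, 13 with array weights, 13 over features with 1 symbol, 5 with centred arrays, 0 with only the compared groups, 0 in lettered mice, and 0 to 89 with 1 mouse left out, the highest without MIX replicate 2. In MIX with HD, where it called 3, the same alternatives in that order gave 12, 0, 7 and 7, then 5 without dim features, 0 with only the compared groups, 0 in lettered mice, and 0 to 80 with 1 mouse left out, the highest without MIX replicate 1. In the averaged pellet comparison, with 11, the count was 0 with the block, 6 with a mean-variance trend, 17 over features with 1 symbol, 0 in lettered mice and 0 to 224 with 1 mouse left out, the highest without MIX replicate 1. MIX with E2, at 0, gave 1 without code style and 0 to 24 with 1 mouse left out, the highest without MIX replicate 2. The averaged diet comparison, at 0, gave 1 with array weights and 0 to 3 with 1 mouse left out, and the interaction gave 0 to 2. The cause was not tested.

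For same-numbered mice of different groups, the correlations of their deviations from the group means ran from -0.261 to 0.3105 over 18 pairs. Of these pairs, 5 had a correlation above 0.1. With 3 or 4 mice a group, these values cannot tell whether the numbers pair the mice. The replicate block changed the call of 0 of the 9 genes. Another choice of feature per gene was not run, because each gene has 1 feature. Numbered mice alone could be fitted only without MIX. Dim Scnn1g and 3 or 4 mice a group limit what could be detected.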
